A study of Mus musculus with 7 samples.

Results

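The oocyte DNA damage checkpoint was described through 9 genes, *Trp63*, *Chek1*, *Chek2*, *Atm*, *Atr*, *Brca1*, *Brca2*, *Pmaip1* and *Bbc3*, of 33437 transcripts quantified in single mouse oocytes at the germinal vesicle (GV) stage. A gene was taken from the transcript that carried its name and lay on its own strand, and where several did, from the one with the highest mean over the 7 libraries. By this rule 8 of the 9 genes were found. The only transcript named *Atr* lay on the opposite strand, so *Atr* was read from the same-strand transcript at its annotated position, a choice made after the table was seen, and it is counted apart from the other 8. All oocytes came from C57BL6 females of 21 days that were floxed/floxed for *Setd1b*, which encodes a histone H3 lysine 4 methyltransferase. The *Setd1b* cKO females were Gdf9-Cre positive (n = 4 libraries) and the *Setd1b* WT females Gdf9-Cre negative (n = 3 libraries), although the breeding scheme in the methods also counts Cre-positive females with an intact allele as WT. The *Gdf9* promoter drives Cre in oocytes from early folliculogenesis, so the deletion was made in the oocyte and not in the follicle cells. Each library held 1 oocyte, and nothing in the labels says which oocytes shared a mother, so the p-values measure the spread between oocytes.

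The DNA damage checkpoint removes or arrests oocytes that carry unrepaired double-strand breaks, whether left from meiosis or induced later. ATM and ATR are the kinases that sense double-strand breaks and single-stranded DNA, and they activate the checkpoint kinases CHK2 and CHK1. In oocytes of the resting follicle pool CHK2 and casein kinase 1 switch on TAp63, the p53 relative encoded by *Trp63*, which then induces *Bbc3* (PUMA) and *Pmaip1* (NOXA), BH3-only proteins that start apoptosis through BAX and BAK. BRCA1 and BRCA2 act on the other side of this decision, in repair of the break by homologous recombination. The kinases and TAp63 are controlled largely by phosphorylation, which RNA levels do not show.

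The libraries held 8582493 to 12972366 mapped reads, and values are given as RPM, the read count scaled to the mapped reads, a share of a library that does not show how much RNA an oocyte held. One read was worth 0.0771 to 0.117 RPM. The 12 oocyte marker transcripts looked up were at 1 RPM or more in all 7 libraries, and their summed level was 21254 to 22374 RPM in *Setd1b* cKO and 25348 to 26669 RPM in WT (two-sided exact permutation test, p = 0.0571, the smallest this test can give with 4 against 3 libraries). Reads outside the transcripts made up 13.2 to 16.4% of *Setd1b* cKO and 9.57 to 9.90% of WT libraries. The *Setd1b* transcript was at 2.68 to 16.7 RPM in cKO and 8.61 to 17.7 RPM in WT, with overlap, and counts over a whole transcript do not show whether a floxed exon was missing. cKO replicate 4 and WT replicate 3 stood apart from the other 5 libraries on the second principal component, which held 31.0% of the variance.

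The 5′ flanks of 2 genes are shown as an example of a member with reads in every oocyte, *Atr*, beside the member with almost none, *Bbc3*, which has the flank with more CpG. RefSeq gave a promoter window, 250 bases before to 50 after the start on GRCm38, for 7 of the 9 genes (for *Bbc3* the one of 3 starts nearest to its oocyte transcript), and only the 250 bases before the start are printed, with CG in capitals. No annotated exon of a protein-coding gene overlaps either stretch. The *Atr* stretch is chr9:95857347-95857596 on the plus strand and holds 15 CpG in 250 bases, and the *Bbc3* stretch is chr7:16309333-16309582 on the plus strand and holds 27 CpG in 250 bases.
Atr: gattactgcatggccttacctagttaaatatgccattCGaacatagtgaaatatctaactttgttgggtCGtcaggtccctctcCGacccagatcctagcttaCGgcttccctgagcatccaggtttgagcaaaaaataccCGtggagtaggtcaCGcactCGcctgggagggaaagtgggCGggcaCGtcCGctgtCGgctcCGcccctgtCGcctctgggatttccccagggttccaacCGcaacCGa
Bbc3: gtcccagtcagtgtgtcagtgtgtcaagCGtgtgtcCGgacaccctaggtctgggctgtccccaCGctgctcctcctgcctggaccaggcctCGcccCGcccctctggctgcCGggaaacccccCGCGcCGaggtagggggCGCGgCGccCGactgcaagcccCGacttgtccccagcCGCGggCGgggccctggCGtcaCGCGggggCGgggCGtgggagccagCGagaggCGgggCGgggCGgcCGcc
Over the full windows the 7 genes held 19 (*Brca1*) to 34 (*Bbc3*) CpG, against a median of 7 and an upper quartile of 20 over all 32851 windows. *Bbc3* had more CpG than 92.3% of the windows, and *Atr* had 22 CpG, more than 76.9% of the windows. A CCAAT box was present on either strand in the windows of *Chek2*, *Atm* and *Brca1*, and in 37.4% of all windows. The p53 half-site, the short element that p53 family proteins bind in pairs, was matched in 0 of the 7 windows and in 8.36% of all windows, which says only that these letters are not in these windows.

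The checkpoint genes differed far more from each other than between genotypes. Per kilobase of transcript, the only scale on which genes of different length were compared, *Chek1* was highest with a mean of 87.9 RPM per kb over the 7 libraries, 10.3 times *Brca1* at 8.50. *Brca2* followed at 6.89, *Trp63* at 3.53, *Atr* at 2.53, *Chek2* at 1.17, *Atm* at 0.759, *Pmaip1* at 0.274 and *Bbc3* at 0.00607 RPM per kb. Each gene was above the next in all 7 libraries, except that *Brca1* was above *Brca2* in 6 of 7 and *Pmaip1* above *Bbc3* in 4 of 7. Ranges over libraries were separate between *Chek1* and *Brca1*, *Brca2* and *Trp63*, and *Atr* and *Chek2*, and the other neighbours in this order overlapped.

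**Figure D1:**
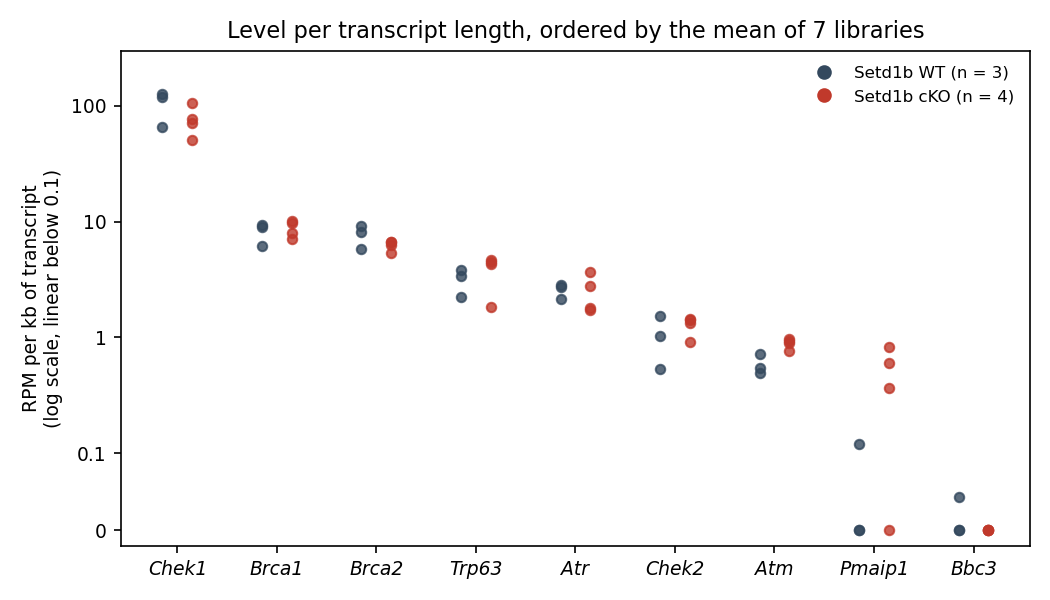
RPM per kilobase of transcript, on a log axis that is linear below 0.1, for the 9 genes ordered by the mean of 7 libraries; each point is 1 oocyte library. *Chek1* sits between 50.7 and 126 RPM per kb, above every value of the other 8 genes, while *Pmaip1* and *Bbc3* reach 0.

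None of the checkpoint genes passed the threshold between genotypes. Of the 8 genes found by name 6 passed the filter on low values (at least 1 RPM in at least 3 libraries) and 0 of these 6 had an adjusted p under 0.05 with a change over 2-fold (limma on log2(RPM + 1), Benjamini-Hochberg adjustment over 18179 transcripts). Over all transcripts tested 5.71% passed, 683 higher and 355 lower in *Setd1b* cKO, and centring the libraries on the median transcript gave 458 higher and 531 lower. With no fold threshold 6.15% of transcripts and 0 of the 6 genes had an adjusted p under 0.05, and 0 of the 6 had an unadjusted p under 0.05 (21.7% of all transcripts). The log2 fold change was above 0 in 4 genes and below 0 in 2, with a median of 0.16 against 0.12 over all transcripts tested. The 95% confidence intervals of *Atm* and *Chek1* reached a 2-fold change, and those of the other 4 genes lay within it. In 5 of the 6 genes the genotypes overlapped, and over all transcripts 20.3% did not overlap. WT replicate 3 was the lowest WT library for 6 of the 6 genes and cKO replicate 4 the lowest cKO library for 4 of the 6, against 40.4% and 37.4% of all transcripts tested.

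**Figure D2:**
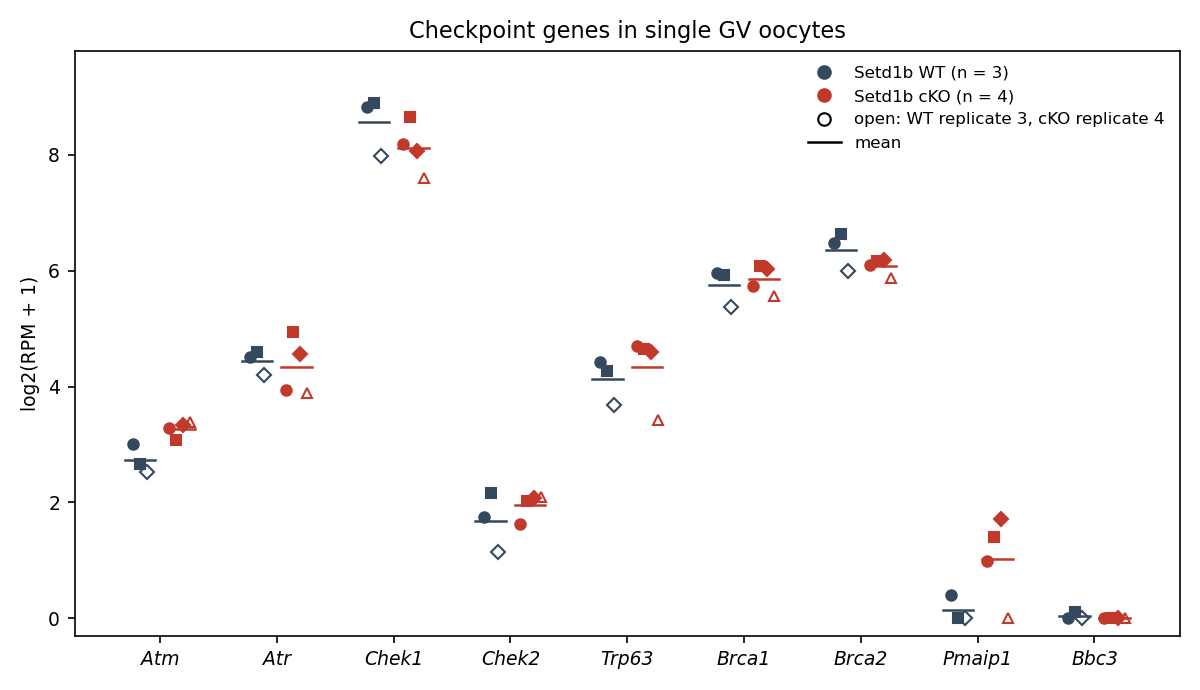
log2(RPM + 1) of each gene in each library, with WT in dark blue, *Setd1b* cKO in red, bars for group means and open symbols for WT replicate 3 and cKO replicate 4. Only *Atm* among the genes tested has the cKO libraries (7.49 to 9.44 RPM) wholly above the WT libraries (4.77 to 7.05 RPM).

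*Atm* was the gene whose genotypes came apart most. Its transcript (chromosome 9, 53436908 to 53536855, minus strand, as are all positions in GRCm38) had 8.81, 7.49, 9.14 and 9.44 RPM in the cKO oocytes, replicates 1 to 4 in turn, and 7.05, 5.32 and 4.77 RPM in the WT oocytes, replicates 1 to 3. Every cKO oocyte was above every WT oocyte, by a margin of less than 1 RPM between the nearest pair. The means were 8.72 ± 0.857 (SD, n = 4) and 5.71 ± 1.19 RPM (SD, n = 3). The log2 fold change was 0.54 (SE 0.25, adjusted p = 0.245), which did not pass, and the values rest on 51 to 105 reads per library. *Npat* starts 58 bases away on the other strand and shares 59 bases with the *Atm* transcript, and it was at 11.9 to 18.9 RPM in cKO and 9.64 to 19.6 RPM in WT (log2 fold change 0.09, adjusted p = 0.906).

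*Atr*, the kinase that answers to replication stress, gave no separation of the genotypes. The transcript read for it (chromosome 9, 95857597 to 95951644, plus strand) starts at the first base of the gene's RefSeq start and carries another name, *1700065D16Rik*, in the deposited table. It was at 14.4, 29.8, 22.7 and 13.9 RPM in cKO and at 21.9, 23.1 and 17.4 RPM in WT. The cKO oocytes spanned the whole WT range, with replicates 1 and 4 below it and replicate 2 above it. A log2 fold change of -0.10 was fitted (SE 0.30, adjusted p = 0.897). The opposite-strand transcript that carries the name *Atr* was at 1.17 to 3.54 RPM in cKO and 1.31 to 1.62 RPM in WT. It shares 9596 bases with the transcript read for *Atr*. How the counting treated strand is not given, and the methods describe no step that keeps strand. Reads in the shared bases may therefore come from either transcript.

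*Chek1*, the kinase that holds the G2/M transition through the CDC25 phosphatases, was the most abundant member. Its transcript (chromosome 9, 36704063 to 36727053, minus strand) stood above 97.8% of the transcripts tested. It was at 291, 400.3, 268 and 192 RPM in *Setd1b* cKO and at 454, 479 and 252 RPM in WT. WT replicates 1 and 2 were above every cKO oocyte, and WT replicate 3 was below 3 of the 4. The log2 fold change was -0.45 (SE 0.30, adjusted p = 0.445), with a confidence interval of 0.461 to 1.17 for the fold. Without WT replicate 3 and cKO replicate 4 the log2 fold change stayed negative but did not pass either.

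*Chek2*, the kinase known to trigger oocyte loss through TAp63, was among the lower transcripts. It (chromosome 5, 110839937 to 110874141, plus strand) was at 2.08, 3.05, 3.22 and 3.26 RPM in cKO and at 2.35, 3.47 and 1.22 RPM in WT, which is 13 to 45 reads per library. The highest and the lowest value were both WT, so the cKO oocytes lay inside the WT range. Fitted over all 7 libraries the log2 fold change was 0.27 (SE 0.32, adjusted p = 0.694), and the interval for the fold ran from 0.743 to 1.95. *Hscb*, which starts 81 bases away on the other strand, was at 55.7 to 77.8 RPM in cKO and 42.1 to 61.7 RPM in WT (log2 fold change 0.43, adjusted p = 0.309).

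*Trp63* message was present in every oocyte. Its transcript (chromosome 16, 25683765 to 25892102, plus strand) starts at the upstream end of the gene and merges the isoforms, so the TA form and the shorter ΔN form could not be read apart. It was at 24.9, 24.0, 23.2 and 9.79 RPM in *Setd1b* cKO and at 20.6, 18.2 and 11.9 RPM in WT. Replicates 1 to 3 of the cKO were above every WT oocyte and replicate 4 was below every one. Its log2 fold change was 0.21 (SE 0.35, adjusted p = 0.785), and it was 0.52 without cKO replicate 4 (adjusted p = 0.249) and -0.0055 without WT replicate 3. 

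Of the TAp63 targets *Bbc3* was at the detection limit and *Pmaip1* was low, with reads in 4 of 7 libraries. *Bbc3* (chromosome 7, 16309616 to 16318205, plus strand) had 0 reads in 6 libraries and 1 read, 0.0771 RPM, in WT replicate 2. A count of 0 allows up to 3 reads, which is 0.231 to 0.350 RPM in these libraries and covers counting error only. *Pmaip1* (chromosome 18) was at 0.990, 1.65, 2.26 and 0 RPM in *Setd1b* cKO, from 10, 20, 26 and 0 reads, and at 0.324, 0 and 0 RPM in WT, from 4, 0 and 0 reads. It was thus seen in 3 of 4 cKO oocytes and in 1 of 3 WT oocytes, and the groups overlapped because cKO replicate 4 had none. *Pmaip1* did not pass the filter on low values, and in the fit with no filter its log2 fold change was 0.89 (SE 0.42, adjusted p = 0.419).

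The 3 oocytes with most *Pmaip1* reads were also the 3 with most message of *Inha*, a granulosa cell marker. *Inha* was at 7.03, 11.4, 13.2 and 0.583 RPM in cKO and at 0.810, 4.32 and 0 RPM in WT, and *Hsd17b1* at 0.594, 2.06, 1.74 and 0 RPM in cKO and 0.486, 0 and 0.187 RPM in WT, named, like *Serpine2*, *Fshr*, *Amh* and *Foxl2* here, after their values were seen. Other markers of the list were ordered otherwise, and *Serpine2*, the most abundant, was at 103, 200.4, 53.5 and 44.9 RPM in cKO and at 213, 163 and 43.0 RPM in WT, while *Fshr* was at 5.15, 3.38, 1.04 and 0 RPM in cKO and at 2.92, 0 and 1.59 RPM in WT. Of the 16 granulosa cell markers found 7 were under 1 RPM in all libraries, *Amh* and *Foxl2* had 0 reads in 6 of 7 libraries each, and the summed level was 123 to 289 RPM in cKO and 93.2 to 276 RPM in WT (two-sided exact permutation test, p = 0.857). The 10 theca, blood and stromal cell markers found summed to 19.6 to 33.3 RPM in cKO and 20.5 to 24.8 RPM in WT (exact permutation test, p = 0.286), and 3 of them were tested. *Dcn* and *Cd68* passed the threshold as higher (5.71% of all transcripts passed in either direction), and *Pecam1*, the most abundant, was at 7.31 to 18.0 RPM in cKO and 13.0 to 19.5 RPM in WT (log2 fold change -0.57, adjusted p = 0.369). Their part in the *Pmaip1* reads was not tested.

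Both breast cancer genes of the homologous recombination arm were well expressed and did not separate the genotypes. *Brca1* (chromosome 11, 101488629 to 101552223, minus strand) was at 52.4, 66.8, 64.4 and 46.3 RPM in cKO and at 61.0, 59.7 and 40.5 RPM in WT. Its groups overlapped almost fully, with the lowest value in WT and the highest in cKO. Its log2 fold change was 0.10 (SE 0.24, adjusted p = 0.857), and centring each library on its median transcript turned it to -0.053. *Nbr1*, which starts 443 bases away on the other strand, was at 36.7 to 40.3 RPM in cKO and 28.3 to 40.4 RPM in WT.

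*Brca2* (chromosome 5, 150522319 to 150569746, plus strand) was at 67.7, 71.1, 71.7 and 57.7 RPM in cKO and at 87.9, 98.4 and 62.5 RPM in WT. WT replicates 1 and 2 were above every cKO oocyte and WT replicate 3 was below 3 of them, the order seen for *Chek1*. The log2 fold change was -0.28 (SE 0.22, adjusted p = 0.518), and the interval for the fold ran from 0.586 to 1.15. *Brca2* shares its first 860 bases with an opposite-strand transcript at 349 to 571 RPM in cKO and 484 to 715 RPM in WT. The methods describe no step that keeps strand, so reads in these shared bases may come from either transcript and the *Brca2* values are uncertain. Altogether 4 of the 9 genes had an opposite-strand neighbour that started within 1000 bases, and none of these neighbours passed the threshold.

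**Figure D3:**
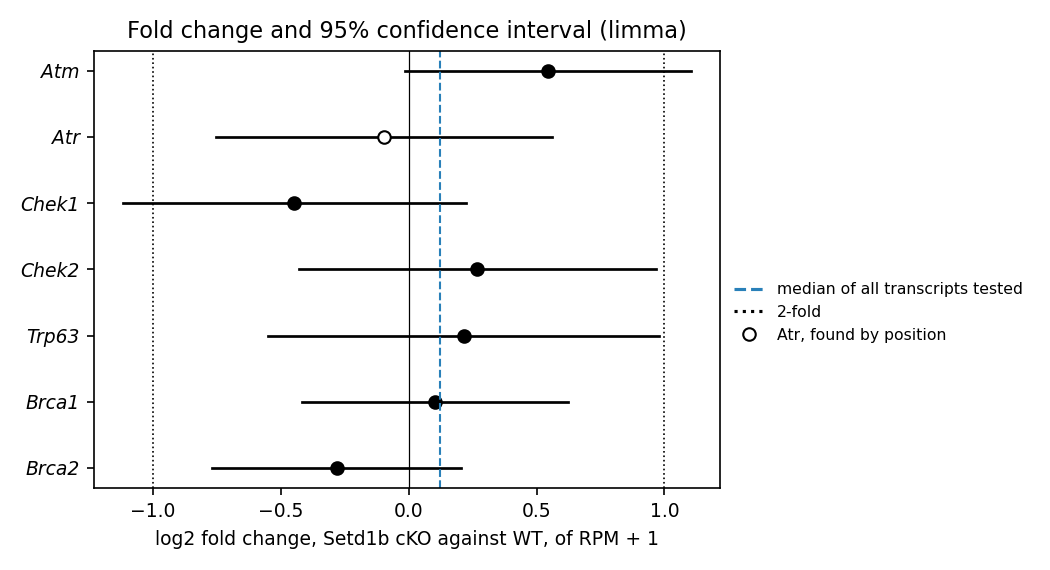
log2 fold change of RPM + 1, *Setd1b* cKO against WT, with 95% confidence intervals from limma for the 6 genes tested and, as an open circle, *Atr*; dotted lines mark 2-fold and the dashed line the median of all transcripts tested, 0.12. Every interval covers 0, and those of *Atm* and *Chek1* extend past 2-fold.

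The rest of the DNA damage response was described through 7 lists of 126 genes, of which 94 were found by name and 86 were tested. In these lists 0 genes passed as higher and 1, *Fancc*, as lower, which is 1.16% beside 5.71% of all transcripts. Libraries of both genotypes were apart in 18 genes, 20.9% beside 20.3% of all transcripts, and the median log2 fold change was 0.06. With genes also taken by position 114 were tested and the same number passed.

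Among damage sensors and upstream kinases 13 of 23 genes were tested, 0 passed and 0 were without overlap, beside 5.71% and 20.3% of all transcripts, with a median log2 fold change of 0.19. *Tipin*, a replication fork protector, had the highest level at 239 to 312 RPM in cKO and 230 to 285 RPM in WT. *Rpa1*, the large subunit of the single-strand binding protein RPA, had the largest difference of the 13, 91.1 to 165 RPM in cKO and 71.4 to 128 RPM in WT (log2 fold change 0.34, adjusted p = 0.526). The other 10 genes had no same-strand transcript under their names. With 21 genes taken by name or position 0 passed, the median was 0.09 and the largest difference was that of *Timeless*, the partner of TIPIN, at 28.1 to 57.0 RPM in cKO and 50.4 to 80.5 RPM in WT (log2 fold change -0.44, adjusted p = 0.410).

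Among the p53 family and its regulators 11 of 15 genes were tested and 0 passed, beside 5.71% of all transcripts. In 5 (45.5%) the genotypes did not overlap, or 33.3% with genes also taken by position, beside 20.3% of all transcripts. *Mdm4*, an inhibitor of p53, was among the most abundant transcripts of the oocyte, at 1402, 1844, 1743 and 1221 RPM in cKO and at 2694, 2704 and 2023 RPM in WT. Every WT oocyte was above every cKO oocyte, and the log2 fold change of -0.68 (SE 0.25, adjusted p = 0.136) did not pass. It was -0.39 with quantile normalisation (adjusted p = 0.386). *Ppm1d*, the phosphatase WIP1 that switches the checkpoint off, was at 9.50 to 13.1 RPM in cKO and 4.45 to 7.86 RPM in WT (log2 fold change 0.81, SE 0.27, adjusted p = 0.106). *Abl1*, *Csnk1d*, *Kat5* and *Trp53* had no same-strand transcript under their names. By position, looked up after the table was seen, *Trp53* was at 28.3 to 51.2 RPM in cKO and 23.9 to 34.0 RPM in WT (adjusted p = 0.507).

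Of 23 homologous recombination partners 18 were tested and 0 passed, beside 5.71% of all transcripts, with a median log2 fold change of 0.08. *Sem1*, a small BRCA2-binding and proteasome protein, was highest at 259 to 749 RPM in cKO and 262 to 560 RPM in WT. *Mcm8*, a helicase needed for meiotic recombination, was at 6.76 to 14.5 RPM in cKO and 4.70 to 7.21 RPM in WT (log2 fold change 0.79, SE 0.30, adjusted p = 0.154). *Bard1*, the partner of BRCA1, was the only one of the 18 (5.56%, beside 20.3% of all transcripts) without overlap, at 9.30 to 15.7 RPM in cKO and 7.58 to 8.79 RPM in WT (log2 fold change 0.66, adjusted p = 0.167), and was named for that after its values were seen.

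Downstream of PUMA and NOXA, 14 of 24 genes of the Bcl2 family and apoptosis executioners were tested. Of these 0 passed and 4 (28.6%) were without overlap, beside 5.71% and 20.3% of all transcripts. *Bcl2l10*, a family member with very high expression in oocytes, was at 2431, 2122, 1894 and 2923 RPM in cKO and at 3475, 3572 and 4136 RPM in WT. Every WT oocyte was above every cKO oocyte (log2 fold change -0.68, SE 0.24, adjusted p = 0.129), with -0.37 after quantile normalisation (adjusted p = 0.435). *Bcl2l11*, the BH3-only protein BIM, was at 6.63, 6.92, 10.3 and 10.02 RPM in cKO and at 5.26, 2.62 and 5.15 RPM in WT (log2 fold change 0.84, SE 0.31, adjusted p = 0.134). *Bax* was low, at 0.816 to 2.79 RPM in cKO and 3.37 to 3.85 RPM in WT (log2 fold change -0.67, adjusted p = 0.264), and was named after its values were seen.

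Among the cell cycle targets of the checkpoint kinases 11 of 17 genes were tested, 0 passed and 0 were without overlap, beside 5.71% and 20.3% of all transcripts. *Ccnb1*, cyclin B1, was highest at 362 to 1307 RPM in cKO and 562 to 1416 RPM in WT, with cKO replicate 4 and WT replicate 3 the lowest of each group. *Sfn*, the 14-3-3 protein sigma induced by p53, was at 0.297 to 2.96 RPM in cKO and 2.25 to 5.59 RPM in WT (log2 fold change -1.05, SE 0.41, adjusted p = 0.160). *Cdkn1a* and *Gadd45g* were below the filter, and *Cdc25b*, *Fzr1*, *Plk1* and *Wee1* had no same-strand transcript under their names.

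In the Fanconi anaemia genes, whose products unhook DNA crosslinks together with BRCA1 and BRCA2, 9 of 13 were tested, 1 passed and 3 (33.3%) were without overlap, beside 5.71% and 20.3% of all transcripts. *Fancc*, a subunit of the ubiquitin ligase core complex of this pathway, fell, from 40.9, 32.1 and 44.1 RPM in WT to 13.9, 18.6, 12.7 and 11.2 RPM in *Setd1b* cKO. All WT oocytes were above all cKO oocytes, and the log2 fold change was -1.42 (SE 0.25, adjusted p = 0.00981). Without WT replicate 1 it was -1.38 with an adjusted p of 0.0504, and no gene of the lists then passed. The transcript named *Fancc* covers chromosome 13, 63479778 to 63501433, on the minus strand, and the call rests on this stretch alone. A second transcript on that strand, 63311539 to 63431724, does not overlap the first and matched the annotated span of the gene under another name. It was at 7.69 to 20.5 RPM in cKO and 22.7 to 41.3 RPM in WT and did not pass (log2 fold change -1.01, SE 0.35, adjusted p = 0.114). *Ube2t*, the E2 enzyme of the pathway, was highest at 511 to 680 RPM in cKO and 496 to 704 RPM in WT, and *Fanca*, *Fancd2*, *Fancf* and *Fancm* had no same-strand transcript under their names.

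Of 11 non-homologous end joining genes, the route that seals breaks without a template, 10 were tested and 0 passed, beside 5.71% of all transcripts. *Nhej1*, the scaffold XLF, was at 47.8, 54.4, 40.0 and 59.9 RPM in cKO and at 113, 98.2 and 85.9 RPM in WT. The transcript with its name (chromosome 1, 74965637 to 75046645) overlaps the annotated span by at most 0.498 of the union of both. All WT oocytes were above all cKO oocytes, and the log2 fold change was -0.96 (SE 0.22, adjusted p = 0.0275), short of 2-fold. Its adjusted p was 0.0735 without cKO replicate 1, 0.0836 without cKO replicate 3, 0.129 without WT replicate 1 and 0.113 without WT replicate 2. *Xrcc5*, the Ku80 subunit that binds the break ends, was highest at 192 to 252 RPM in cKO and 170.0 to 186 RPM in WT (log2 fold change 0.28, adjusted p = 0.462). Libraries of both genotypes were apart in 5 (50%) of the 10, beside 20.3% of all transcripts, and the median log2 fold change was -0.33, beside 0.12 over all transcripts, while *Xrcc4* had no same-strand transcript under its name.

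**Figure D4:**
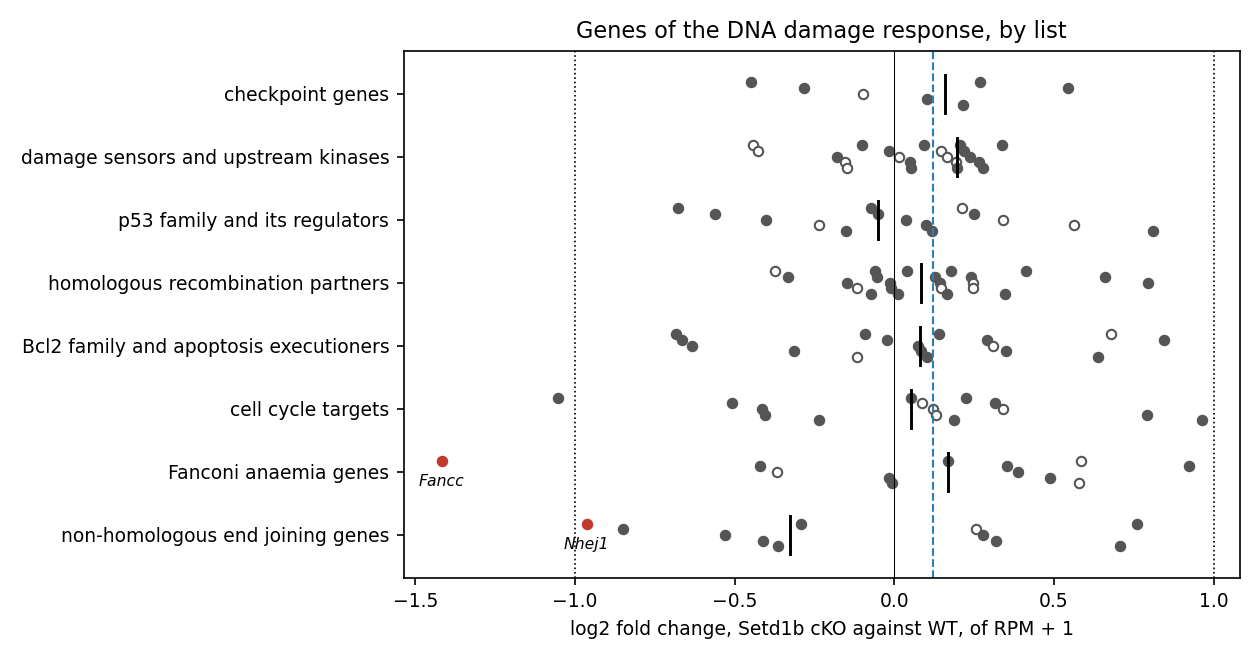
log2 fold change of RPM + 1, *Setd1b* cKO against WT, for the checkpoint genes and for each of the 7 lists; filled points were found by name and open points by position, red points had an adjusted p under 0.05, short bars are medians of the filled points, dotted lines mark 2-fold and the dashed line the median of all transcripts. *Fancc* is the one point beyond 2-fold with an adjusted p under 0.05, and *Nhej1* lies just inside 2-fold.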

How the data were processed

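Single GV oocytes, 4 *Setd1b* cKO and 3 WT, were profiled by the authors with SMARTer cDNA amplification and single-read sequencing. They mapped reads to GRCm38 with Hisat, guided by known splice sites, discarded mappings with a poor quality score, so reads that match several places were largely lost, and quantified reads in SeqMonk over oocyte transcripts with merged isoforms. Submitters' notes also name bcl2fastq 1.8.4 and featureCounts 1.4.4. Values were deposited as log2 RPM per transcript, scaled by the authors to mapped reads, with 0.9 read in place of 0.

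Whole reads were recovered for 100% of values above that floor (tolerance 0.1 read), which gave the depth of each library. Values were converted to log2(RPM + 1), with 0 RPM for 0 reads. Those that reached 1 RPM in 3 or more libraries (18179 transcripts) were compared between genotypes with lmFit and eBayes with trend in limma 3.58.1 (R 4.3.3), two-sided, without covariates, and Benjamini-Hochberg adjustment. The threshold was the study's, adjusted p under 0.05 and over 2-fold, but the study used a count model. The log2 values were tested here without a count model, and a voom fit in limma to the whole reads served as an alternative. Fold changes on this scale understate those of low genes. Levels per kb used the GENCODE M21 transcript with the longest coding sequence. A position match needed an overlap of at least 0.5 of the union of both spans.

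Members and lists were chosen with earlier results of these data known. Named genes were all members and, per list, genes past the threshold, up to 4 with an adjusted p under 0.05 short of 2-fold, the highest mean and the largest change; others are said to be named after their values were seen. Oocytes sharing a replicate number did not deviate together in every pair, so the numbers were not used to pair them. The scripts were tested on simulated data. Alternatives varied pseudocount, filter, scaling, variance model and libraries.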

Additional observations from a re-analysis of the deposited data

Results flagged for a closer look

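*Trp63* in the *Setd1b* cKO libraries was set apart by 1 oocyte. Replicate 4 was at 9.79 RPM and the other 3 at 23.2 to 24.9 RPM, so the gap to the nearest was 0.883 of the whole range, above the 95% critical value of Dixon's test for 4 samples. Of 22 groups examined in this way 1 was set apart, and chance does so in about 1 of 20 groups. Replicate 4 was also the shallowest library and stood apart on the second principal component, and the part of this in the *Trp63* value was not tested.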

How the results depend on the processing

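Over 25 alternatives, of which those leaving out both cKO replicate 4 and WT replicate 3, using median-of-ratios library sizes or matching by position were added after seeing the data, 0 checkpoint genes passed the threshold. Over the 23 that gave its fold change *Atm* kept its sign, from 0.36 to 0.68 on the log2 scale (adjusted p 0.175 to 0.477), as did *Chek1*, from -0.74 to -0.27, and *Brca2*, from -0.47 to -0.15. The median of the checkpoint genes ran from -0.045 to 0.25. Transcripts past the threshold in all numbered 1038, and from 280 without WT replicate 2 to 1751 with library quality weights.

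Genes of the lists past the threshold numbered 3 with centring on the median transcript (*Fancc*, *Nhej1*, *Polm*), 2 with library quality weights, with voom on median-of-ratios sizes, without cKO replicate 4 and WT replicate 3 together, and with no fold threshold (*Fancc*, *Nhej1* in each), and 0 to 2 with 1 library left out. The adjusted p of *Nhej1* ran from 0.0136 to 0.129 with 1 library left out, above 0.05 in 4 of the 7 cases, and was 0.0667 with no filter.

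*Mdm4* and *Bcl2l10* stayed short of 2-fold in all alternatives but had an adjusted p of 0.0402 and 0.0363 with quality weights and 0.0264 and 0.0234 without cKO replicate 4 and WT replicate 3. *Mcm8*, which was higher in cKO, had a limma adjusted p of 0.0493 with quality weights (log2 fold change 0.89).

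Directions turned, with no adjusted p under 0.05, in these cases. Centring gave -0.053 for *Brca1*, -0.11 for *Tipin* and -0.027 for *Sem1*, and median-of-ratios sizes gave -0.034, -0.090 and -0.011. Leaving out cKO replicate 4 and WT replicate 3 gave -0.046 for *Chek2* and 0.060 for *Ube2t*. *Ube2t* was 0.12 with quantile normalisation, 0.073 with scaling by reads within transcripts and 0.025 with quality weights. With 1 library left out the log2 fold changes ran from -0.0055 to 0.52 for *Trp63*, from 0.00043 to 0.51 for *Chek2*, from -0.30 to 0.051 for *Atr*, from -0.085 to 0.20 for *Brca1*, from -0.041 to 0.11 for *Tipin*, from -0.18 to 0.44 for *Sem1*, from -0.65 to 0.17 for *Ccnb1* and from -0.10 to 0.15 for *Ube2t*. The cause was not tested.

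The correlation of deviations between same-numbered oocytes was 0.19, 0.29 and -0.13 for numbers 1 to 3. Such values cannot show whether same-numbered oocytes shared a mother, and the main fit did not use the numbers as pairs. With a replicate block, in which cKO replicate 4 has no partner and adds nothing, 0 checkpoint genes and 3 list genes (*Fancc*, *Nhej1*, *Cdc25c*) passed, and *Atr* was 0.051, *Sem1* -0.18 and *Ccnb1* 0.17, while *Bcl2l10* had an adjusted p of 0.0208. *Bbc3*, *Pmaip1* and *Chek2* rest on at most 45 reads in any library.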

Other observations

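*Cdkn1a*, the p21 inhibitor induced by p53 family proteins, had 0.495, 0.247, 0.871 and 0.699 RPM in the 4 cKO oocytes, from 5, 3, 10 and 6 reads, and 0 in all 3 WT libraries, below the filter on low values. A count of 0 allows 0.231 to 0.281 RPM in the WT libraries, so cKO replicate 2 lies within that limit, and the genotypes did not overlap in 20.3% of all transcripts tested. These values, too, were picked out after they were seen. Among other genes named after their values were seen, *Ercc4*, a nuclease of crosslink repair, was at 8.04 to 12.0 RPM in cKO and 3.46 to 5.34 RPM in WT (log2 fold change 0.92, limma adjusted p = 0.0722). *Dclre1c*, the nuclease Artemis, was at 15.8 to 23.6 RPM in cKO and 9.73 to 12.1 RPM in WT (0.76, limma adjusted p = 0.0863). *Parp1* was at 21.9 to 33.1 RPM in cKO and 14.9 to 17.9 RPM in WT (0.71, limma adjusted p = 0.0953). *Polm*, an end joining polymerase, lay the other way, at 7.11 to 12.3 RPM in cKO and 14.2 to 24.1 RPM in WT (-0.85, limma adjusted p = 0.102). None of these passed the threshold.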
